A study of Rattus norvegicus with 6 samples.

Results

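Cytosolic ribosomal protein genes encode the proteins that, with ribosomal RNA, build the small and the large subunit of the ribosome outside mitochondria. They were taken here as the gene symbols of the naming pattern Rpl or Rps followed by a number, with or without a copy suffix, together with Rplp0, Rplp1, Rplp2 and Rpsa. Of 21026 symbols in the table, 98 fitted the pattern, and 90 of these had at least 10 counts in at least 3 libraries and form the group described. The group holds 55 genes of the large subunit and 35 of the small subunit. Of the 90, 77 are the standard genes, called parents below, and 13 carry the symbol of a copy of another member.

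The 8 symbols left out are all copies, and none passed the filter of the test across genes. Their highest count in any library was 16, for Rps12l3, which lay just outside the threshold with 15, 9 and 16 counts in young libraries and 6, 8 and 4 in aged ones. The member just inside was Rps12l2, with 23, 24 and 20 young counts and 15, 15 and 31 aged counts. Rpl3l, the heart and skeletal muscle copy of Rpl3, summed to 20 counts over the young and 1 over the aged group, and Rpl31l1 had 0 in every library. The threshold reads counts and not the difference between ages.

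The cells were mesenchymal stem cells from rat bone marrow, stromal cells that can form bone, fat and cartilage. Polyadenylated RNA was sequenced from 3 libraries labelled young and 3 labelled aged, and no treatment or genetic change is given for either group. The labels call the libraries biological replicates but give no age in months, strain, sex, passage or culture condition, and do not state how many animals were used. Each p-value is thus set against the spread of these 6 libraries alone, part of which may be technical.

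Library totals ranged from 34638874 to 42479626 counts. Genes with any count numbered 16337 to 16492 in young and 17790 to 17995 in aged libraries. The scaling factors for library composition were 0.888 to 0.893 in young and 1.12 to 1.13 in aged libraries. Mitochondria-encoded transcripts took 1.07 to 1.36% of the counts in young libraries and 4.25 to 4.46% in aged ones. Of all 14273 tested genes, 41.8% were called lower in aged cells and 44.7% higher. Of 11 stromal markers, all tested, 6 fell, 3 rose and 2 were not called. Their summed level, most of it from Col1a1, was 30800 to 31500 CPM (counts normalised for library size and composition) in young libraries and 16900 to 17000 in aged ones. Lepr and Vcam1, named after their values were seen, had group means of 0.120 and 0.360 CPM in young and 0.544 and 0.702 CPM in aged cells, so both were nearly absent. Cxcl12, on the same list and named in the same way, was abundant in young cells and fell 16.7-fold, from 3387 ± 165 to 203 ± 1.44 CPM. Thy1 fell from 4235 ± 9.52 to 1622 ± 13.7 CPM (SD, n = 3 each), while Nt5e and Itgb1, also named after their values were seen, rose 4.48-fold and 1.63-fold. Of 12 haematopoietic markers 11 are in the table, 4 passed the filter (3 fell and 1 rose), and the list summed to 93.2 to 96.4 CPM in young and 43.5 to 44.4 CPM in aged libraries. The 4 were named after their values were seen. Cd14 fell from a mean of 80.7 to 21.0 CPM, Lyz2 from 10.4 to 0.173 CPM and Cd68 from 2.66 to 0.784 CPM. Csf1r rose 67.5-fold, from 0.32 to 21.8 CPM. The pan-leukocyte marker Ptprc was at 0 in every young library and at a mean of 0.00854 CPM in aged ones. The 5 endothelial markers summed to at most 0.678 CPM in any library. The part of other cell types in the results below was not tested. For the mitochondrial share, only the family's part of all counts was recomputed without mitochondria-encoded counts, and its part in the other results was not tested. In bulk RNA, fewer cells of a type and less RNA per cell cannot be told apart.

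Each ribosome needs its proteins in near-equal numbers, so cells tune these genes together, chiefly through growth signalling by mTOR. Their messages begin with a terminal oligopyrimidine (TOP) motif, a C followed by an unbroken run of C and T, through which the RNA-binding protein LARP1 represses translation when mTOR is inactive. Loss of a single member can stop ribosome assembly and activate p53, because free RPL5 and RPL11 bind the p53 inhibitor MDM2. In marrow, inherited loss of members such as RPS19 causes Diamond-Blackfan anaemia.

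Sequences at the start of transcription were compared between parents and copies. Windows from 20 bases before to 20 bases after the RefSeq start (build GRCr8) are printed 5′ to 3′ for members the results turn on. Capitals mark the longest unbroken run of C or T that reaches to within 5 bases of the start. Rplp0, Rpl12 and Rps9 are members with many counts that fell in aged cells.
Rplp0: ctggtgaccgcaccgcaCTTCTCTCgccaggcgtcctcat
Rpl12: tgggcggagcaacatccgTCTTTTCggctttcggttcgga
Rps9: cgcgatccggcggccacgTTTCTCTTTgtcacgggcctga
They lie at chr12:46718371-46718410 (minus strand), chr3:36661920-36661959 (plus strand) and chr1:74430418-74430457 (minus strand).

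Parents and copies are set side by side for Rps27 and Rpl22, whose copies changed by another amount than the parent.
Rps27: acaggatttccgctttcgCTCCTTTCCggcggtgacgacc
Rps27l: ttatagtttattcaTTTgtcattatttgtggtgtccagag
Rpl22: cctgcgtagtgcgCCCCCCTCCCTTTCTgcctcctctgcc
Rpl22l1: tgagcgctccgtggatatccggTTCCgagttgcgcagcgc
These are chr2:177964587-177964626 (minus), chr8:76443638-76443677 (plus), chr5:168117941-168117980 (plus) and chr2:113683176-113683215 (plus). The parent windows hold runs of 9 and 15 bases, and the copy windows runs of 3 and 4.

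Some members with divergent changes are shown for the same reason. Rpl23a, the only parent that rose, had no RefSeq window. Printed are Rpl3 with the largest fall, Rps6 as the least changed parent of the small subunit, and Rpl39l and Rpl26l1 as copies that rose.
Rpl3: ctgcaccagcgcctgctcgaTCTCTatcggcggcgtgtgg
Rps6: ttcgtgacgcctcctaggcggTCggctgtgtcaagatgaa
Rpl39l: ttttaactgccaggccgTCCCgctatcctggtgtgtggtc
Rpl26l1: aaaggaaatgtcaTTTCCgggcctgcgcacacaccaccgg
Their positions are chr7:113507971-113508010 (minus), chr5:106420521-106420560 (minus), chr10:5966602-5966641 (minus) and chr10:17029009-17029048 (minus).

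Of the 71 members with a RefSeq window, 47 held such a run of at least 6 bases, which is 66.2%, against 18.7% of all 27457 gene windows. Among parents it was 44 of 62 and among copies 3 of 9. Those copies were Rpl30l2, Rps12l2 and Rps4y2, with runs of 8, 11 and 8 bases, and their windows are not printed. The printed parents Rpl3 and Rps6 held runs of only 5 and 2 bases. The length minimum was chosen after the windows were seen, and an annotated start that is off by a few bases can hide a run. In the longer window from 250 bases before to 50 after the start, CCGGAAG, the core recognised by ETS factors such as GABP, stood on either strand in 22 members, or 31%, against 9.22% of all windows. AAGATGGC, the core of YY1 sites, stood in 6 members (8.45%, against 3.44% of all windows). GGGCGG, the Sp1 core, stood in 38 members (53.5%, against 34.9%), and TATAAA in 8 (11.3%, against 14.3%). The 44 parents with a run of at least 6 bases had a median log2 change of -1.36 and the 18 with a shorter run -1.25. A match describes letters in these windows and is not evidence of a bound site.

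Ribosomal protein messages took a smaller part of the RNA in aged cells. Summed over the family they made up 5.34, 5.12 and 5.23% of each young library and 2.69, 2.74 and 2.76% of each aged one. Every aged library lay below every young one, and the spread within a group was small, at 5.23% ± 0.110 against 2.73% ± 0.0368 (SD, n = 3 each). With mitochondria-encoded counts left out of the total, the shares were 5.29% ± 0.104 and 2.85% ± 0.0404.

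**Figure D1:**
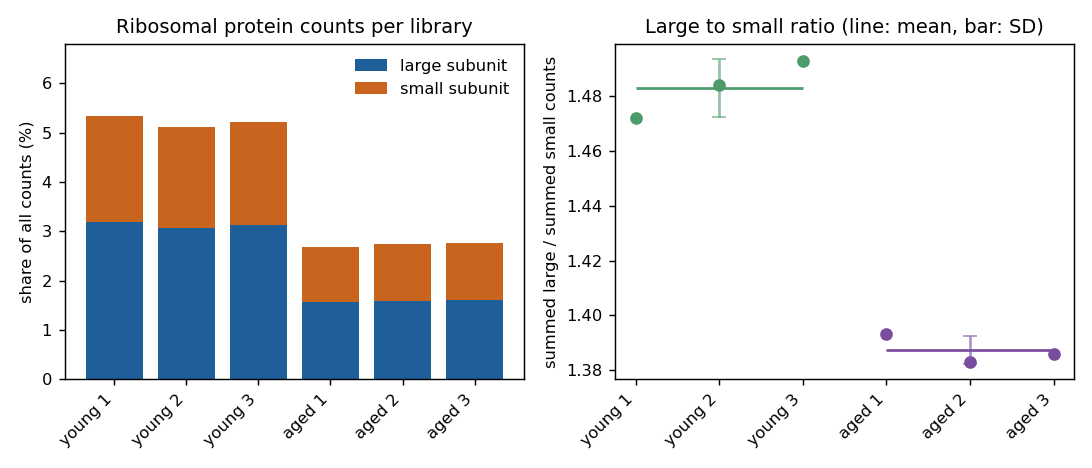
The left panel stacks the percent of all counts in large-subunit and small-subunit members for each library, and the right panel gives the ratio of the summed counts, with the group mean and SD. The young libraries lie between 5.12 and 5.34% and the aged ones between 2.69 and 2.76%, and the ratio is lower in all 3 aged libraries on an axis that does not start at 0.

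Gene by gene, nearly the whole family was lower in aged cells. By edgeR's quasi-likelihood test at a Benjamini-Hochberg adjusted p under 0.05, 85 of 90 members were called lower, 3 were called higher and 2 were not called. The 85 include Rps6 and Rpl7l1, whose calls did not hold under every setting. Among all 14273 tested genes, 41.8% were called lower and 44.7% higher, 86.4% in all. The median log2 change of the members was -1.31, a 2.48-fold fall, and that of all tested genes was 0.05. A fall of more than 2-fold was called for 72 members, against 21% of all tested genes. In 85 members every aged library lay below every young one, which held for 42.4% of all genes, and in 3 every aged library lay above, against 45.2%. When libraries were scaled by size alone, which moved the log2 changes of all genes up by a median of 0.34, the members' median was -0.97. That scaling also changed the part of lower genes among all called genes from 48.3 to 37.7%.

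The changes of the members lay close together. The middle 50% of the family spanned 0.35 on the log2 scale, and that of all tested genes 2.15. Within 0.5 log2 units of the family median lay 76 of the 90 members, among them 71 of the 77 parents. The replicates were tighter still, with a median coefficient of variation over parents of 3.27% in young and 2.04% in aged libraries.

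**Figure D2:**
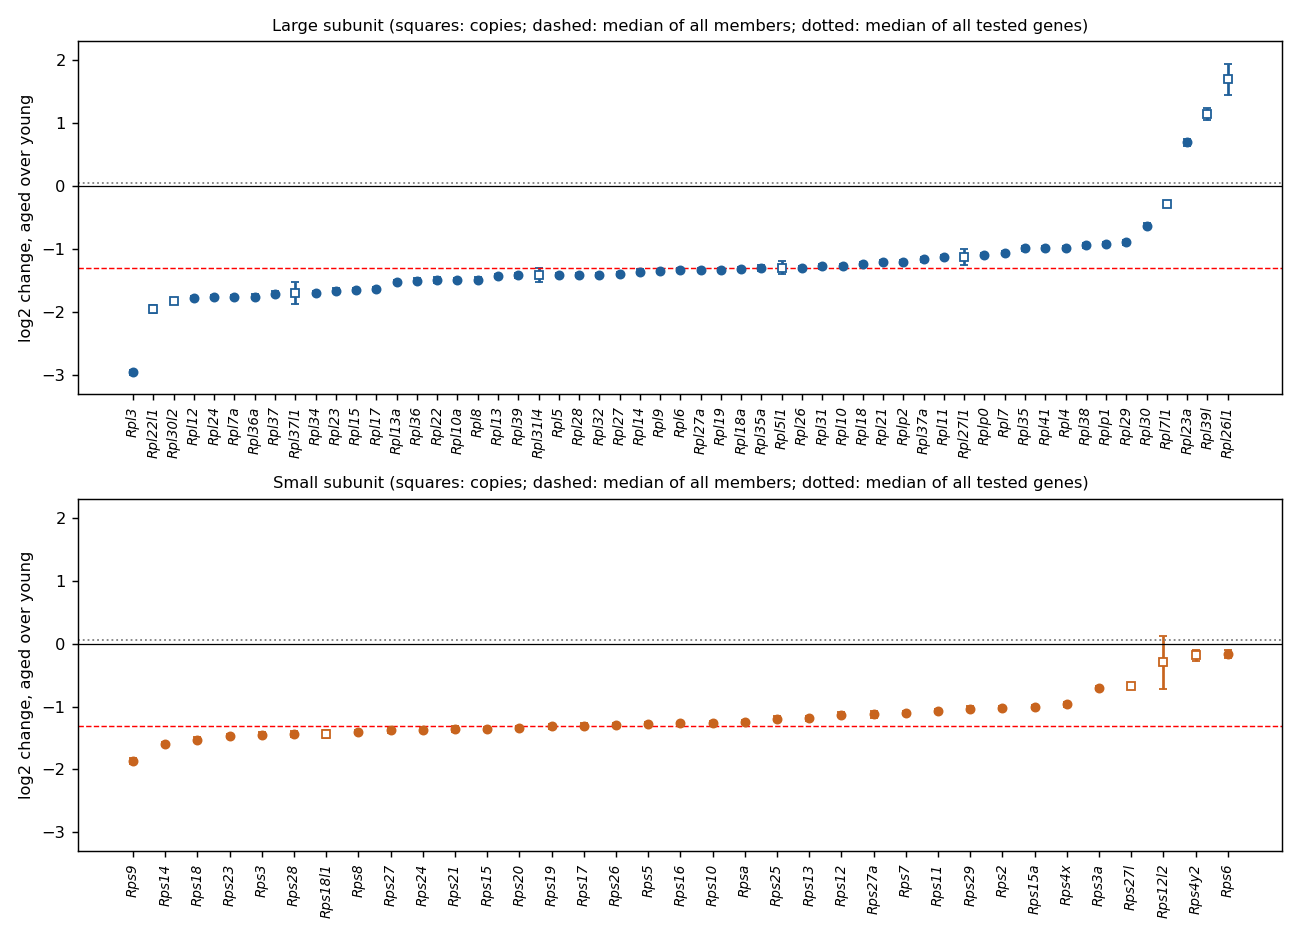
Log2 change in aged over young cells for each member, ranked within the large subunit (top) and the small subunit (bottom), with the standard error, which is often smaller than the marker. Most members lie near the dashed family median of -1.31, with Rpl3 far below it at -2.96 and Rpl23a, Rpl39l and Rpl26l1 above 0.

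The P stalk is the flexible arm of the large subunit that recruits and activates the elongation factors, and Rplp0 is its anchor. Rplp0, the member with the most counts, read 2724, 2564 and 2703 CPM in young and 1222, 1256 and 1275 CPM in aged libraries. It fell 2.13-fold (log2 change -1.09, SE 0.029, edgeR adjusted p = 4.3e-16), with no overlap between the groups. Rplp1 and Rplp2, which bind it as dimers, fell 1.90-fold and 2.31-fold. Rplp1 went from 974, 953 and 970 CPM to 512, 505 and 508 CPM, a smaller fall than that of most parents.

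Rpl5 and Rpl11 carry the 5S ribosomal RNA into the large subunit. Rpl5 fell 2.67-fold, from 1034, 1080 and 1044 CPM to 393, 397 and 393 CPM. Rpl11 fell 2.19-fold, from 570, 549 and 564 CPM to 247, 261 and 259 CPM. Both were lower in every aged library. Relative to the summed counts of the family, the part of Rpl5 decreased (log2 change -0.14, SE 0.036, edgeR adjusted p = 0.0023) and that of Rpl11 increased (log2 change 0.14, SE 0.032, edgeR adjusted p = 0.0012).

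Of the 8 listed proteins around the exit of the peptide tunnel, where the new chain leaves the ribosome, 7 fell and 1 rose. The median of their log2 changes was -1.32, and of all tested genes 41.8% were called lower and 44.7% higher. Rpl19, behind Rplp0 and Rpsa in counts, fell 2.51-fold, from 1502, 1420 and 1476 CPM to 578, 583 and 589 CPM. The exception was Rpl23a, a docking site for the signal recognition particle, and it was also the only parent of the 77 that rose. Rpl23a read 204, 245 and 205 CPM in young and 344, 347 and 366 CPM in aged libraries. All aged libraries were above all young ones, and the log2 change was 0.69 (SE 0.055, edgeR adjusted p = 2.0e-09). RefSeq lists 17 pseudogene symbols for Rpl23a, and reads that fit several loci may be lost or shared. No symbol in the table that begins with Rpl or Rps contains -ps, the RefSeq mark of a pseudogene.

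Rpl3 helps to form the peptidyl transferase centre and had the largest fall of all members. Its level was 1288, 1222 and 1267 CPM in young cells and 156, 166 and 162 CPM in aged cells. It fell 7.79-fold (log2 change -2.96, SE 0.035, edgeR adjusted p = 2.1e-20), far beyond the next parent. Rpl12, at the base of the stalk, fell 3.42-fold, from 1011, 981 and 1001 CPM to 291, 297 and 289 CPM. Across the large subunit 52 of 55 members were called lower and 3 higher, around a median of -1.34 (log2). The shares among all tested genes were 41.8% lower and 44.7% higher.

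In the small subunit 33 of 35 members were called lower and 0 higher, around a median of -1.27 (log2). All 14 listed proteins of its head, the part that holds the transfer RNAs from above, fell, with a median of -1.29. Rps18 of the head fell 2.88-fold, from 978, 886 and 921 CPM to 321, 324 and 321 CPM. All 17 other parents, of the body and platform, were also called lower, with a median of -1.24, although the call for Rps6 did not hold under every setting. In all parents of the small subunit every aged library lay below every young one, for Rps6 only narrowly. The same held for 42.4% of all tested genes, and 41.8% of them were called lower.

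Rps9, a protein of the body that binds ribosomal RNA early in assembly, had the largest fall of the small subunit. It read 699, 624 and 684 CPM in young and 177, 192 and 182 CPM in aged libraries and fell 3.65-fold (log2 change -1.87, SE 0.043, edgeR adjusted p = 6.9e-17). Rps14, of the platform, fell 3.02-fold, and Rps23, of the decoding centre, fell 2.76-fold. Rpsa, also known as the laminin receptor, had the second most counts and went from 2200, 2031 and 2136 CPM to 884, 905 and 908 CPM. That is a 2.36-fold fall, close to the family median.

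Rps6, the substrate of the S6 kinases downstream of mTOR, was the least changed parent of the small subunit. It read 450, 563 and 448 CPM in young and 422, 432 and 446 CPM in aged libraries. The groups touch closely, since the highest aged library lies just under the lowest young one, and young replicate 2 stands above the other 2 young libraries. The log2 change was -0.17 (SE 0.063, edgeR adjusted p = 0.019), and -0.06 without young replicate 2 (adjusted p = 0.047). It turned to 0.17 when libraries were scaled by size alone (adjusted p = 0.025) and was not called by DESeq2 (adjusted p = 0.15), without aged replicate 1 (adjusted p = 0.085) or without aged replicate 2 (adjusted p = 0.057). No direction is therefore given for Rps6.

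The balance of the subunits moved slightly. Summed large-subunit counts were 1.47, 1.48 and 1.49 times the small-subunit counts in young libraries and 1.39, 1.38 and 1.39 times in aged ones. The mean was 1.48 ± 0.0105 in young and 1.39 ± 0.00513 in aged libraries (SD, n = 3 each), and the groups did not overlap. Over all parents the ratios were 1.47, 1.48 and 1.49 against 1.39, 1.38 and 1.38. Without Rpl3 the ratios were 1.41, 1.42 and 1.43 in young and 1.37, 1.36 and 1.36 in aged libraries, and without Rpl3 and Rpl23a they were 1.41, 1.41 and 1.43 against 1.34, 1.33 and 1.33. The groups did not overlap in any of these sets.

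Within the family the members did not change by one common factor. When each library was scaled to the summed counts of the family, 38 members took a smaller part of it in aged cells, 30 a larger part, and 22 were not called. On that scale 11.6% of all tested genes were called lower and 79% higher, 90.6% in all. The parts of Rpl3 (log2 change -1.69) and Rpl22l1 (-0.69) decreased more than those of the other members. Gains were largest for Rpl26l1 (2.97), Rpl39l (2.42), Rpl23a (1.97) and Rps6 (1.10). The P stalk members Rplp0 and Rplp1 took larger parts (0.18 and 0.35, edgeR adjusted p = 1.2e-05 and 1.4e-07), and Rplp2 was not called (0.07, edgeR adjusted p = 0.058). Rpsa was also not called (0.04, edgeR adjusted p = 0.21) and Rps27 took a slightly smaller part (-0.10, edgeR adjusted p = 0.017). Such shifts are unequal changes within a fixed total, and a gain of one member is a loss of others.

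Copies of ribosomal protein genes differed more among themselves than parents did. Of the 13, 9 were called lower, 2 were called higher and 2 were not called, against 41.8% lower and 44.7% higher among all tested genes. The middle 50% of the copies spanned 1.16 on the log2 scale against 0.32 for the parents. The SE ran from 0.042 (Rpl7l1) to 0.423 (Rps12l2) among copies and reached at most 0.063 (Rps6) among parents. The part of this error in the wider span was not tested. Rpl39l, a copy of the tunnel protein gene Rpl39 that is known for its role in sperm formation, read 7.42, 7.07 and 8.93 CPM in young and 17.0, 17.3 and 17.5 CPM in aged libraries. It rose 2.22-fold (log2 change 1.15, SE 0.100, edgeR adjusted p = 6.6e-09), while Rpl39 fell 2.67-fold, from 310, 311 and 307 CPM to 114, 114 and 119 CPM. The counts of Rpl39l were 2.4, 2.27 and 2.91% of those of Rpl39 in young and 14.9, 15.3 and 14.7% in aged libraries.

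Rpl26l1, a close copy of Rpl26, had 32, 44 and 26 counts in young and 115, 150 and 110 counts in aged libraries. It rose by 1.70 on the log2 scale (SE 0.247, edgeR adjusted p = 5.6e-06), with no overlap, and stayed at about 1% of Rpl26 counts or less, at 0.872, 1.05 and 0.876% in the aged libraries. Rpl26 itself fell 2.46-fold. Both rises therefore concerned copies at a small part of their parent's counts.

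Rpl22l1, the counterpart of Rpl22 that also acts in splicing, went the other way. It fell 3.89-fold, from 74.7, 80.9 and 74.1 CPM to 19.1, 20.8 and 19.2 CPM, and Rpl22 fell 2.82-fold. Its counts were 22.6 to 26.9% of those of Rpl22 in young and 16.1 to 19.2% in aged libraries. Rps27l, a target of p53, fell less than its parent, from 147, 135 and 137 CPM to 86.5, 84.7 and 89.8 CPM, a 1.6-fold fall, against 2.60-fold for Rps27. Rps27l counts thus stood at 33.0 to 34.1% of Rps27 in young and 51.2 to 56.3% in aged libraries.

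Rpl7l1, which acts in assembly of the large subunit, read 164, 159 and 159 CPM in young and 136, 125 and 135 CPM in aged libraries. Its log2 change was -0.28 (SE 0.042, edgeR adjusted p = 7.3e-06), but 0.06 and not called when scaled by library size alone (adjusted p = 0.22). Rpl7 fell 2.08-fold. Rps4y2 had a log2 change of -0.18 (SE 0.087, edgeR adjusted p = 0.060) and overlapping groups, with 21.7, 19.0 and 21.3 CPM in young and 17.6, 16.9 and 20.2 CPM in aged libraries. Without aged replicate 3 it was called at -0.26 (adjusted p = 0.017) and without young replicate 2 at -0.25 (adjusted p = 0.0085). Its parent Rps4x fell 1.95-fold. For Rps12l2, at most 31 counts in a library, the log2 change was -0.30 (SE 0.423, edgeR adjusted p = 0.52), and its parent Rps12 fell 2.19-fold. The change of Rps12l2 was -0.11, -0.08 and -0.79 without aged replicates 1, 2 and 3, none of them called. Scaled by library size alone, Rps4y2 and Rps12l2 turned to 0.16 and 0.04.

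Rpl30l2 had about as many counts as Rpl30 in young libraries, at 99.8 to 106% of it, and 42.4 to 47.7% in aged libraries. Taken alone Rpl30 fell 1.55-fold and Rpl30l2 3.53-fold, and with their counts summed the log2 change was -1.12, between the separate values. How the authors' counting divided reads between near-identical copies is not given, so the separate values are uncertain. The other 5 copies, Rpl5l1, Rpl27l1, Rpl31l4, Rpl37l1 and Rps18l1, had under 10% of their parent's counts in every library. They fell by 1.13 to 1.70 on the log2 scale, each within 0.28 of its parent (Rpl5, Rpl27, Rpl31, Rpl37 and Rps18).

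**Figure D3:**
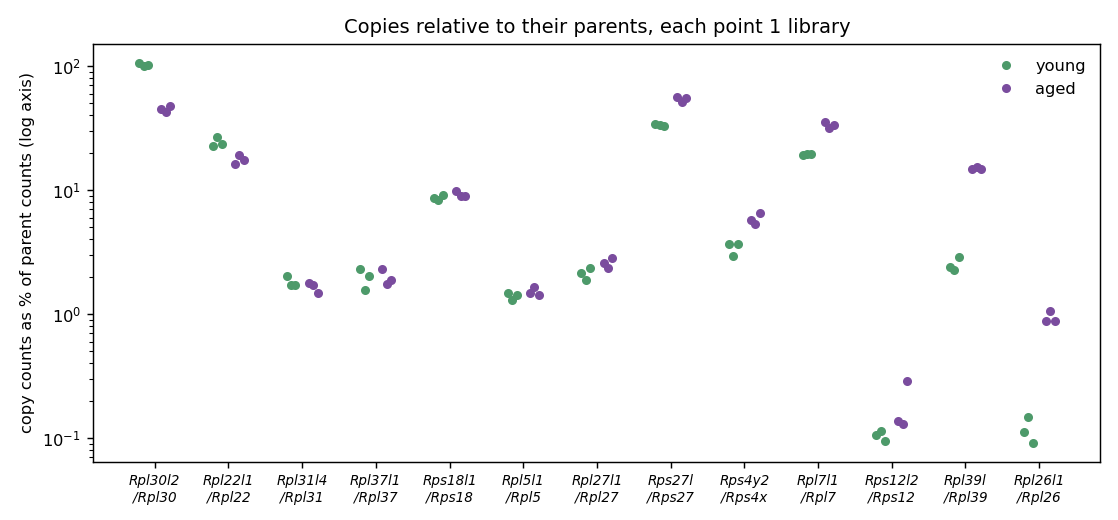
Counts of each copy as a percent of its parent's counts on a log axis, with 1 point per library and pairs ordered by the aged to young ratio. Rpl30l2 and Rpl22l1 lie lower in aged libraries, and 5 pairs lie near the same level in both groups. Of those 5, Rpl27l1 is slightly higher in every aged library, at 2.36 to 2.81% against 1.9 to 2.34% in young ones. The other 6 pairs, among them Rps27l, Rpl7l1, Rpl39l and Rpl26l1, lie higher in every aged library.

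Young replicate 2 stood apart from the other young libraries most in a few members, and lay slightly below them in most others. It had the highest mitochondria-encoded share of the young libraries, 1.36% against 1.07 and 1.12%. Rps6 and Rpl23a were 0.33 and 0.26 log2 units above the mean of the other young libraries there, while the median member was 0.07 below. The copies Rpl37l1, Rpl27l1 and Rpl26l1 deviated there by -0.47, -0.27 and 0.35, and Rpl39l and Rps4y2 by -0.19 and -0.18. Rpl39l deviated by 0.28 in young replicate 3. Deviations of more than 0.2 were found for 5 members in young replicate 2, and for 1 and 2 members in young replicates 1 and 3. Across the 77 parents, the difference of young replicate 2 from young replicate 1 and the difference of the aged mean from young replicate 3 had a Pearson r of 0.63 and a Spearman rho of 0.40. These differences have no library in common, although all libraries are scaled together. Without Rps6 and Rpl23a the r was 0.37 over 75 parents. The corresponding r for young replicate 1 minus 3 against aged minus young replicate 2 was -0.07, and over all 14273 tested genes the r for young replicate 2 was 0.25 and the rho 0.30, nearer to the rho of the parents. Leaving out young replicate 2 gave a family median of -1.35, with 86 members called lower and 3 higher. The part of this library's mitochondria-encoded share in these values was not tested.

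**Figure D4:**
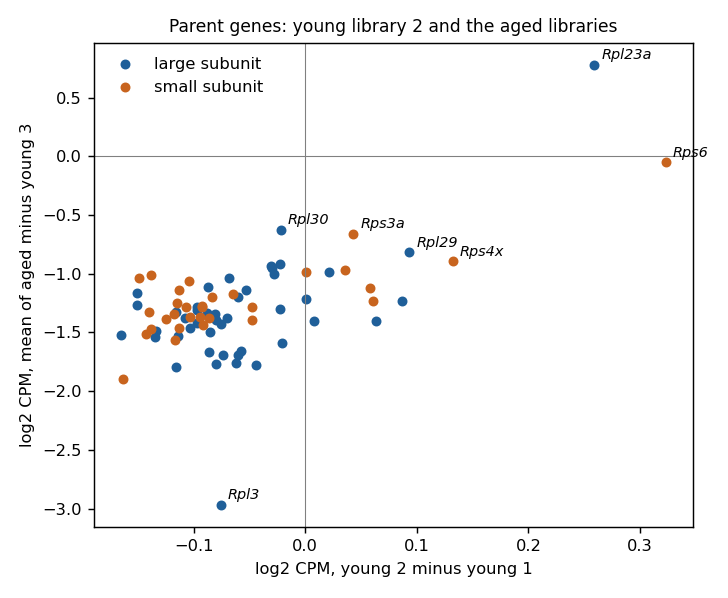
Each point is a parent gene, with log2 CPM of young replicate 2 minus young replicate 1 across and the aged mean minus young replicate 3 up. Rpl23a and Rps6 lie far to the right and at the top, and Rpl3 lies at the bottom with no unusual value in young replicate 2.

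Processed pseudogenes are common for this family. Every parent had at least 1 pseudogene symbol in RefSeq, with a median of 11 and a maximum of 36, for Rps2. Over the 77 parents, the number of these symbols and the log2 change had a Pearson r of 0.17. The log2 change and the young level had an r of -0.23 and a Spearman rho of -0.10. The young level enters both of these values, which by itself favours a negative r. The log2 change and the length of the pyrimidine run had an r of -0.01 over 62 parents. Genes are not independent replicates, and no test is given for these values.

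Short lists of related genes were read from the same test. The 4 ribosomal proteins with other symbols all fell (median -1.15, log2). They include Fau, which encodes a fusion of a ubiquitin-like protein and a small-subunit protein and fell 2.58-fold, and the copy Rpl36al1, which fell 1.75-fold. Of 16 other TOP messages 14 fell and 2 rose, with a median of -0.88. Over 12 alternative settings 12 to 14 of them were called lower and 2 to 3 higher. Eef1a1, which brings transfer RNA to the ribosome, fell 3.13-fold from 5661 ± 97.1 to 1811 ± 15 CPM (SD, n = 3 each). The translocase gene Eef2 fell 3.09-fold, and the initiation factor gene Eif3f fell 3.53-fold. Npm1, a nucleolar chaperone gene, rose 1.30-fold, and the histone chaperone gene Nap1l1 rose 2.26-fold.

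Of 39 ribosome assembly genes, 25 rose, 10 fell and 4 were not called, and the median was 0.51 (log2). By library size alone 4 were called lower. Utp20, of the early small-subunit precursor, rose 8.21-fold from 8.73 ± 1.66 to 71.6 ± 2.13 CPM. Fbl, the methyltransferase fibrillarin, fell 1.75-fold, and Nhp2, of the pseudouridylation complex, fell 2.61-fold. Of 14 genes of RNA polymerase I and its factors, 10 rose and 3 fell, with a median of 0.85. Polr1f rose 4.73-fold, and Polr1d, a subunit shared with RNA polymerase III, fell 1.99-fold.

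Factors that bind ribosomal protein genes or their messages were mostly higher. Among 11 tested, 10 were called higher and 1, Myc, lower, around a median of 1.003 (log2). Larp1, the repressor of TOP messages, rose 1.32-fold from 213 ± 0.932 to 280 ± 4.46 CPM, and Larp4, which protects poly(A) tails, rose 11.9-fold. Myc, a transcription factor that drives ribosome production, went from 115 ± 2.08 to 98.9 ± 3.49 CPM (edgeR adjusted p = 1.6e-04). Its log2 change was -0.22, and 0.12 under scaling by library size alone (adjusted p = 0.015), so no direction is given. The counts for these lists are set against 41.8% lower and 44.7% higher among all genes.

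**Figure D5:**
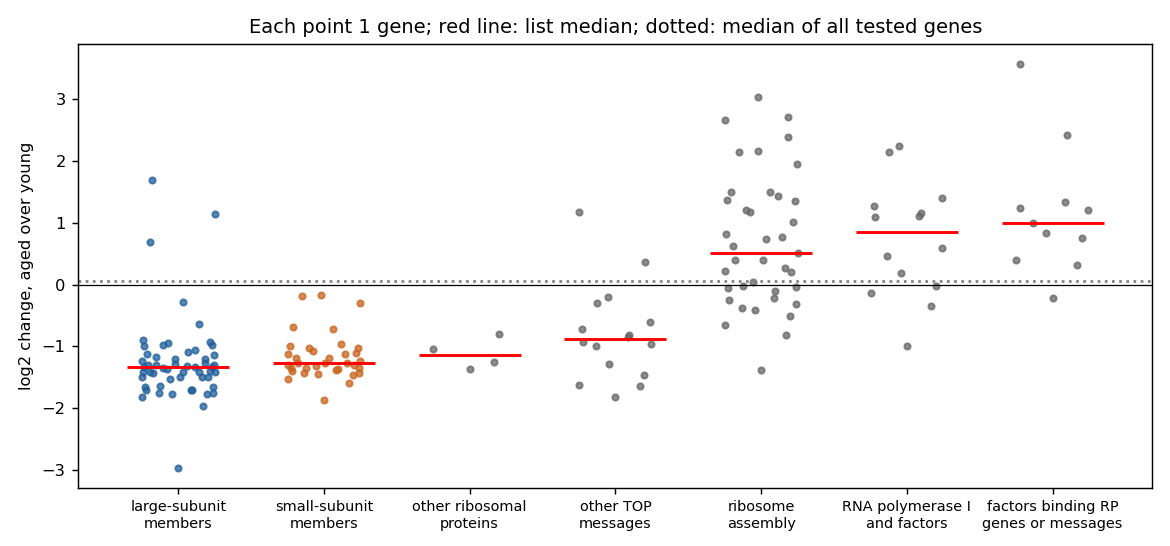
Each point is the log2 change of 1 gene in aged over young cells, grouped by list, with the list median as a red line and the median of all tested genes dotted. Both subunits and the other ribosomal proteins lie near -1.3 to -1.1, the other TOP messages at -0.88, and the assembly, polymerase and factor lists above 0 at their medians.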

How the data were processed

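The deposited data are 1 table of whole-number counts, with gene symbols as rows and libraries as columns, and fastp, HISAT2 and HTSeq are named per the submitters' processing notes. For the versions, genome build, annotation and strand setting, the sources used here hold no statement, so reads of near-identical copies, overlapping genes and antisense genes may be shared or lost. Columns were matched to samples through the library names in the labels.

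Genes were filtered by filterByExpr (minimum count 10), scaled by TMM and tested in edgeR 4.0.16 (R 4.3.3) by the quasi-likelihood F test, in a model of group alone. Adjustment was made over all 14273 tested genes by the Benjamini-Hochberg method, and SE is the log2 change divided by the square root of F. In a further fit each library total was set to the summed counts of the members. Alternatives were library size alone, TMM without the members, DESeq2 1.42.0, limma-voom (limma 3.58.1), no low-count filter, leaving out each library and a replicate block. A count of 0 allows up to 3 counts, which is 0.0688 to 0.0840 CPM per library, for counting error only.

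Members and lists were chosen with earlier results of these data known. Genes named are the 4 highest and 4 lowest log2 changes of each subunit, copies with their parents, the P stalk, Rpsa, Rpl5, Rpl11, the 3 members with most counts, those at the threshold, and the extremes of each list with 6 chosen genes. Of the 90 members, 88 matched a RefSeq symbol of GRCr8 and Rpl39l matched a synonym. Comparisons between genes, such as a copy as a percent of its parent, are of counts and not of levels per length, since transcript lengths were not used here.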

Additional observations from a re-analysis of the deposited data

How the results depend on the processing

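Over 13 alternatives the count of members called lower ran from 76 to 86 and that of members called higher from 1 to 4, where the lowest values, 76 and 1, come from restricting to parents. Scaling by library size alone moved the median log2 change to -0.974 for members, -1.003 for the large subunit and -0.932 for the small subunit. It also turned Rpl7l1 to 0.056, Rps12l2 to 0.04, Rps4y2 to 0.155, Rps6 to 0.167 and Myc to 0.121, and it left 4 assembly genes, 1 polymerase gene and 0 binding factors called lower instead of 10, 3 and 1. Without mitochondria-encoded counts the aged share was 2.853%. Rps4y2, not called in the main setting, was called with TMM without the members (-0.192), limma-voom (-0.185) and no filter (-0.197), and leaving out 1 library moved it between -0.264 and -0.13. Scaled to the family total, 30 to 44 members were called lower and 26 to 33 higher over 9 alternatives.

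The labels do not say that a replicate number marks a shared animal or batch. Deviations of same-numbered libraries correlated at -0.01, 0.01 and 0.03 over all genes, so the numbers were not taken to pair samples, and at 0.37, 0.31 and 0.08 over the members, where each library correlated best with its own number except young replicate 3. With a replicate block 85 members were called lower and 3 higher, the same counts as without it. Where 1 library is left out, that group is assumed to vary like the other. Counts per kilobase of coding length were not run, since no protein or transcript lengths were used here. Copies with few counts, such as Rps12l2 at 15 to 31, are limited by depth.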
